A study of Mus musculus with 18 samples.

Results

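Neurosphere cultures from the mouse ganglionic eminence that had received BMP2 for 24 h were compared with those untreated 24 h cultures whose arrays resembled them most. The comparison used 4 of the 18 arrays of the series, BMP2 replicates 1 and 2 and control replicates 5 and 6. The controls 1 to 4 of the same time were used as a check. The study placed BMP2 beside trichostatin A (TSA), an inhibitor of histone deacetylases, and asked which genes each of them controls while neural precursors differentiate. All cultures came from the lateral and medial ganglionic eminences, the embryonic source of the striatum, of C57BL/6 J embryos at E15.5. The cells were grown for 7 days as floating spheres with EGF and FGF2, dissociated, plated without EGF in 1% fetal calf serum, and deprived of FGF2 after 2.5 days. Treated cultures received 10 ng/ml recombinant BMP2, and control cultures received neither BMP2 nor TSA. Such cultures are a mixture of precursors, astrocytes, neurons and cells of the oligodendrocyte lineage in serum, so fewer cells of a type and less RNA per cell cannot be told apart in any result below. Whether 2 arrays with the same treatment came from separate cultures is not stated in the labels. All errors and p-values therefore cover the spread between arrays of the same group alone, which may be technical. That spread was pooled over all 18 arrays, so the spread of groups outside the comparison enters the error of each gene.

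Bone morphogenetic proteins are secreted dimers that bind type I and type II serine/threonine kinase receptors. The activated receptors phosphorylate Smad1, Smad5 and Smad8, which enter the nucleus with Smad4 and switch on target genes, among them the Id genes and a set of inhibitors that damp the same pathway. In the embryonic forebrain BMP signals are known to favour astrocytes and to hold back oligodendrocytes.

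Signals are linear hybridization values per probe set of a Mouse Genome 430 2.0 array. A probe set was tested if its mean reached 100 in the BMP2 arrays or in controls 5 and 6, and the brightest tested probe set stands for its gene. Fold changes are on the scale of log2(signal + 32), which understates the change of dim genes, and ± gives their standard error from the limma fit. Genes rose or fell where the Benjamini-Hochberg adjusted p of this fit was under 0.05. The likeness that chose controls 5 and 6 is no finding. Correlations of log2 signals were 0.969 to 0.976 between BMP2 arrays and controls 5 and 6, and 0.950 to 0.960 between BMP2 arrays and controls 1 to 4. The labels name no batch. A probe set of Xist, the RNA that silences an X chromosome in female cells, had 702 to 1223 in the BMP2 arrays, 1544 to 2080 in controls 5 and 6, and 21.9 to 53.5 in controls 1 to 4. In the same order, another had 2193 to 3277, 2782 to 4447 and 593 to 1884, and the remaining one 33.1 to 57.7, 23.4 to 97.5 and 98.5 to 193. On their brightest probe sets, the Y-linked Uty and Kdm5d overlapped between these sets. The Y-linked Eif2s3y had 235 to 476, 305 to 673 and 491 to 859. The untreated cultures differed among themselves: 3881 of 17727 probe sets (21.9%) differed between controls 5 and 6 and controls 1 to 4, more than the 1948 of 17553 (11.1%) that differed between BMP2 and controls 5 and 6. The cultures carried markers of the labelled tissue, though not all of those listed. Signals of the astrocyte gene Slc1a3, the neuronal gene Dcx, the striatal precursor gene Dlx2 and the oligodendrocyte gene Olig1 were above 200 on all 4 arrays. Of the listed genes on the array, 23 of 26 astrocyte genes, 17 of 20 neuronal genes and 10 of 16 ganglionic eminence factors were bright enough to be tested. The eminence factor Gsx2 had 23.6 and 41.9 with BMP2. None of the 11 microglia markers, 5 erythroid markers, 8 meningeal fibroblast markers or 6 ependymal markers on the array was bright enough to be tested.

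After 24 h of BMP2, 678 genes rose (6.77% of the 10008 tested) and 548 fell (5.48%), which is 12.3% together. The log2 fold change was above 1 for 367 of the rises and below -1 for 253 of the falls. The median over all genes tested was -0.01. For 1091 of the 1226 changed genes (89.0%), both BMP2 arrays lay beyond all 6 controls, as they did for 3251 of all 10008 genes tested (32.5%). Of the 1226 genes, 1000 (81.6%) also changed in the same direction against controls 1 to 4 and 6 in the opposite direction. That share reads against a background in which 34.7% of genes tested against controls 1 to 4 changed, and both comparisons use the same BMP2 arrays. By the criteria of the study, a ratio above 2, a difference above 100 and here an unadjusted limma p under 0.1, 1168 of 45037 probe sets changed (2.59%), 655 upward and 513 downward.

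The largest rise was that of Diras2, a small GTPase of the Ras superfamily. Its signals were 3518 and 3617 with BMP2 and 53.0 and 18.4 in controls 5 and 6, which is 5.78 ± 0.39 on the log2 scale (adjusted p = 1.4e-07). Wif1, a secreted inhibitor that binds Wnt ligands, had 1125 and 1614 with BMP2 against 4.83 and 4.84, which is 5.23 ± 0.25 on the log2 scale (adjusted p = 8.6e-09). Serpinf1, the gene of pigment epithelium-derived factor, had 2215 and 1323 against 24.5 and 19.3, which is 5.02 ± 0.24 on the log2 scale (adjusted p = 8.6e-09). These 3 genes were dim in all 6 controls and bright on both BMP2 arrays. The other genes among the 12 largest rises were Gja3, a connexin of gap junctions (4.47), Npvf, a neuropeptide precursor (4.34), Stum (4.20), Cidea, a lipid droplet protein (4.11), Hopx, an atypical homeodomain protein (4.02), Scg2, a granin of secretory vesicles (3.93), Ccn2, the matricellular connective tissue growth factor (3.92), the inhibitory Smad6 (3.81) and the kinase Stk32b (3.79). Ccn2 varied most among them, with 2099 and 550 with BMP2 and 94.6 and 10.8 in controls 5 and 6, and its log2 fold change was 2.06 against controls 1 to 4. In all, 186 genes rose from a control mean under 100, so their fold changes start from signals near the background.

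The largest fall was that of Gpr17, a receptor of oligodendrocyte precursors on the way to myelination. Its signals were 112 and 165 with BMP2 and 3567 and 4507 in controls 5 and 6, which is -4.58 ± 0.71 on the log2 scale (adjusted p = 0.00054). Bmp4, a ligand of the same receptors as the added BMP2, had 28.6 and 47.1 against 1112 and 1346, which is -4.18 ± 0.52 on the log2 scale (adjusted p = 6.8e-05). For both genes, the BMP2 arrays also lay below controls 1 to 4, which had 4336 to 5142 for Gpr17 and 472 to 1487 for Bmp4. Lims2, Enpp6, Myrf, Bcas1, Pcdh15 and Pdgfra, also among the 12 largest falls, belong to the oligodendrocyte lineage genes described below. The remaining 4 were the receptor tyrosine phosphatase Ptpre (-3.36), the small GTPase Rab33a (-2.98), the transcription factor Nfe2l3 (-2.90) and Tmem88b (-2.73). The call of Tmem88b was lost without control replicate 6 (adjusted p = 0.0523).

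Upstream sequences of 3 of the largest rises and of Bmp4 are shown because Smad complexes are known to bind GC-rich elements in target promoters. The genes were picked by name, not by rank, and Diras2, the largest rise, is not among them. Each is the 250 bases before the RefSeq start of the gene on GRCm38.p6, in the direction of transcription. Wif1 is at chr10:121033754-121034003 on the plus strand, Serpinf1 at chr11:75422624-75422873, Smad6 at chr9:64022060-64022309 and Bmp4 at chr14:46390670-46390919, all 3 on the minus strand. Capitals mark GGAGCC, the GC-rich Smad element searched, or its reverse complement GGCTCC.
Wif1: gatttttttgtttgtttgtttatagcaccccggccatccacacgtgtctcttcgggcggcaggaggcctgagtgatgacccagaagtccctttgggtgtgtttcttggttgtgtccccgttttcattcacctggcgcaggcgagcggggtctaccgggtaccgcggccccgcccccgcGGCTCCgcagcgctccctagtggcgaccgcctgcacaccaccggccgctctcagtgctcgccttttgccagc
Serpinf1: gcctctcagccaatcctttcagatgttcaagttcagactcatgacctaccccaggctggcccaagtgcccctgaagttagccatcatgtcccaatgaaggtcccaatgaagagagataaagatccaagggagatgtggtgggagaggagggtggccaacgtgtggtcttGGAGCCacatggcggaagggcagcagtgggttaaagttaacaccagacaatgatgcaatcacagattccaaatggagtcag
Smad6: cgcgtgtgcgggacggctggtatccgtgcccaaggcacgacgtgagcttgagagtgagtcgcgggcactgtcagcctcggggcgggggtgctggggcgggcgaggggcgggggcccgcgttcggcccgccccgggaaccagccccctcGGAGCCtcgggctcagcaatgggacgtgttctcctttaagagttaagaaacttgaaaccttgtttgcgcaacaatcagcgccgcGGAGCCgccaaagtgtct
Bmp4: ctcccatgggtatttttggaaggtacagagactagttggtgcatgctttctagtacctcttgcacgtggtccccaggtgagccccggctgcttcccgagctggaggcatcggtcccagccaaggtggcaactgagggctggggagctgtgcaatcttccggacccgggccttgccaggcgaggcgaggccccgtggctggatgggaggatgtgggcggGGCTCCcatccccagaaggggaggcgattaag
The Smad6 window held 2 copies and the other windows 1 each, in the forward orientation in Smad6 and Serpinf1 and in the reverse orientation in Wif1 and Bmp4. The element stood, on either strand, in 26% of all 32851 windows of this length and in 41.5% of the 8191 tested genes with a window. A gene counted if any 1 of its windows held the element, so shares of genes and of windows are not alike. Among genes with a window, the element stood in 51.5% of 538 that rose and in 42.4% of 429 that fell. It was thus found upstream of genes that rose and of a gene that fell, and a match of these letters is a description, not a site of binding.

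Transcription factors known as BMP targets were higher as a group. Of the 10 listed and tested, 7 rose and none fell, with a median log2 fold change of 1.43, against 6.77% of all genes that rose. Id1, an inhibitor of basic helix-loop-helix factors, had 3897 and 3886 with BMP2 and 1756 and 1732 in controls 5 and 6, which is 1.14 ± 0.34 on the log2 scale (adjusted p = 0.039). Hey1, a repressor of the Hairy family, had 4386 and 4529 against 1055 and 1409, which is 1.84 ± 0.26 on the log2 scale (adjusted p = 0.00019). Both were bright in the controls and higher on both BMP2 arrays than on any control. A different pattern was seen for Atoh8, Klf4, Snai2 and Msx2, which were dim in all 6 controls. Atoh8, a basic helix-loop-helix factor, went from 26.2 and 5.49 to 343 and 269, Klf4, a zinc finger factor, from 38.9 and 26.4 to 433 and 426, and Snai2, a repressor of epithelial genes, from 20.9 and 12 to 192 and 189. Their log2 fold changes were 2.85, 2.84 and 2.21, and that of the homeodomain factor Msx2 was 1.72. Id2 and Id3, close relatives of Id1, had higher signals on both BMP2 arrays than on any control but did not pass. Id2 had 7155 and 6729 against 3755 and 3685 (adjusted p = 0.056), with 1 of its 3 probe sets passing, and Id3 had 4808 and 4787 against 2173 and 2500 (adjusted p = 0.22). Id4 had 3707 and 3377 against 2662 and 1577 and passed at an adjusted p of 0.048, and Msx1 overlapped its controls. Against controls 1 to 4, where 34.7% of all genes changed, Id2, Id3 and Msx1 passed (adjusted p = 0.035, 0.0087 and 0.011). Id4 did not pass against them (adjusted p = 0.088). The call of Id1 was lost when any 1 of the 4 arrays was left out, while its log2 fold change remained between 1.13 and 1.15.

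**Figure D1:**
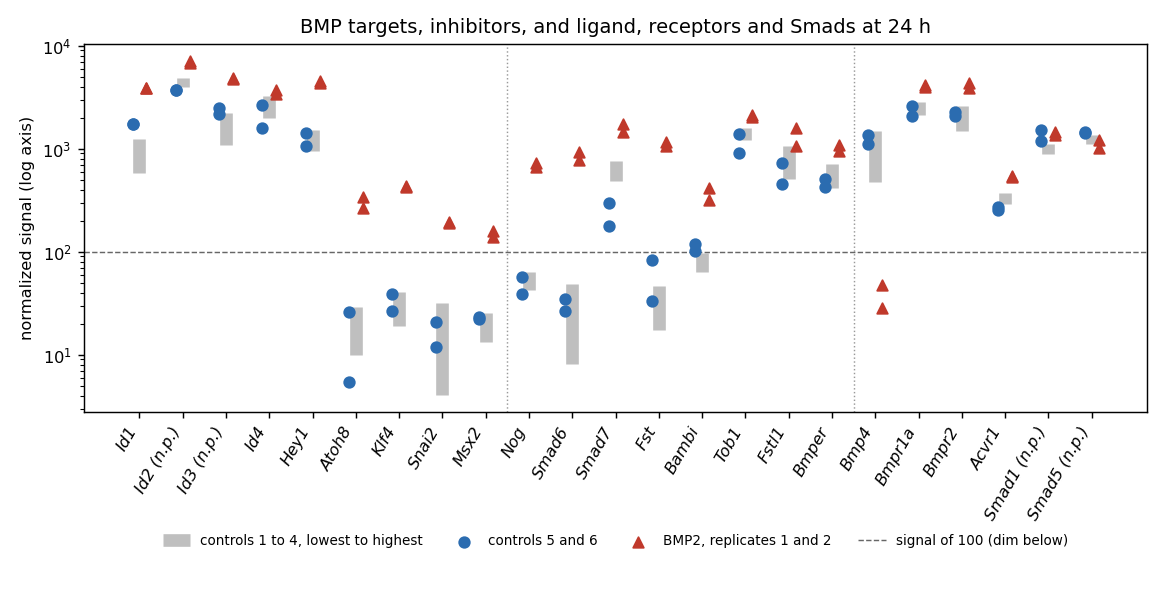
Normalized signals (log axis) of BMP target genes, pathway inhibitors, and the ligand Bmp4 with receptors and Smads at 24 h, with triangles for the 2 BMP2 arrays, circles for controls 5 and 6, and grey bars from the lowest to the highest of controls 1 to 4. Genes marked n.p. did not pass the test. Nog, Smad6 and Fst lie under 100 in all 6 controls and between 669 and 1155 with BMP2, and Bmp4 falls from 1112 and 1346 to 28.6 and 47.1.

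Inhibitors of the pathway were higher as well, with 8 of 12 tested rising, none falling and a median of 1.10. Nog, which encodes the secreted BMP antagonist noggin, had 669 and 721 with BMP2 and 39.2 and 56.3 in controls 5 and 6, which is 3.20 ± 0.18 on the log2 scale (adjusted p = 2.6e-08). Smad6, which blocks the receptor Smads inside the cell, had 927 and 770 against 26.5 and 34.9, which is 3.81 ± 0.31 on the log2 scale (adjusted p = 1.2e-06). Fst, the activin antagonist follistatin, had 1057 and 1155 against 83.0 and 33.0, which is 3.72 ± 0.32 on the log2 scale (adjusted p = 2.3e-06). All 3 were under 100 on every control. Smad7, the other inhibitory Smad, had 1748 and 1463 against 295 and 176. Its log2 fold change of 2.65 became 1.28 against controls 1 to 4, which had 484 to 761. Smaller rises were measured for the pseudoreceptor Bambi (1.5), for Fstl1, a follistatin-like secreted protein (1.13), for Bmper, a secreted modulator of BMPs (1.07), and for Tob1, an antiproliferative binding partner of Smads (0.88). Without BMP2 replicate 1 or without control replicate 6, 5 of the 8 passed. The ubiquitin ligases Smurf1 and Smurf2, the secreted antagonist Nbl1 and the BMP-binding Twsg1 did not pass, with log2 fold changes between -0.13 and 0.42.

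Among the ligands, receptors and Smads themselves, 3 of 12 tested genes rose, 1 fell, and the median was 0.10. The risers were receptors. The type I receptor Bmpr1a had 4171 and 3949 against 2590 and 2070, which is 0.80 ± 0.13 on the log2 scale (adjusted p = 0.00086), and all 5 of its probe sets passed. The type I receptor Acvr1 rose by 0.95 on the log2 scale, with 1 of its 2 probe sets passing, and the type II receptor Bmpr2 rose by 0.89, a call lost without BMP2 replicate 1 or control replicate 6. Bmp4 was the gene that fell. The signal transducers did not pass: Smad1 had 1354 and 1454 with BMP2 and 1177 and 1523 in controls 5 and 6, Smad4 had 3312 and 3080 against 3374 and 2758, and Smad5 had 1205 and 1012 against 1417 and 1454.

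Genes of the oligodendrocyte lineage were lower at each stage listed. Among the transcription factors of the lineage, 5 of 7 tested fell, none rose, and the median was -0.96, against 5.48% of all genes that fell. Sox10, required for myelin gene expression, had 272 and 214 with BMP2 and 1580 and 1546 in controls 5 and 6, which is -2.54 ± 0.52 on the log2 scale (adjusted p = 0.0044). Myrf, the regulator that starts myelination, had 133 and 99.0 against 1398 and 1588, which is -3.37 ± 0.69 on the log2 scale (adjusted p = 0.0045). Olig2, which specifies the lineage, fell less, from 2674 and 3161 to 1335 and 1640, a log2 fold change of -0.96. Its relative Olig1 had 5666 and 6946 against 6972 and 7582 and did not pass (adjusted p = 0.29). The calls of Nkx2-2 (-1.32) and Myt1 (-0.89) were lost without any 1 of the 4 arrays, which leaves 3 of 7.

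Precursor and premyelinating genes showed the lowest median of all lists, -2.50, with 9 of 13 tested falling and none rising. The list was chosen with earlier results of these data known. It holds Gpr17, Lims2, Bcas1, Enpp6 and Plxnb3, which the study had reported as lowered in this series, so its rank is no independent finding. Pdgfra, the PDGF receptor of oligodendrocyte precursors, had 261 and 349 with BMP2 and 2726 and 2140 in controls 5 and 6, which is -2.87 ± 0.23 on the log2 scale (adjusted p = 1.0e-06). Bcas1, a marker of cells that begin to myelinate, had 409 and 554 against 5200 and 5211, which is -3.37 ± 0.60 on the log2 scale (adjusted p = 0.0015). Lims2, with 47.7 and 47.1 against 1057 and 1163, and Pcdh15, with 25.7 and 25.6 against 363 and 551, ended in the dim range. The choline phosphodiesterase Enpp6 (-3.43), the semaphorin receptor Plxnb3 (-2.50), the deacetylase Sirt2 (-1.52) and the calcium channel Itpr2 (-0.84) fell as well. The proteoglycans Cspg4 and Vcan, also precursor genes, did not pass on their brightest probe sets. Cspg4 had 137 and 142 against 144 and 151, and Vcan had 979 and 976 against 1164 and 1195. The other tested probe set of Cspg4 fell by 1.5 on the log2 scale and passed.

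**Figure D2:**
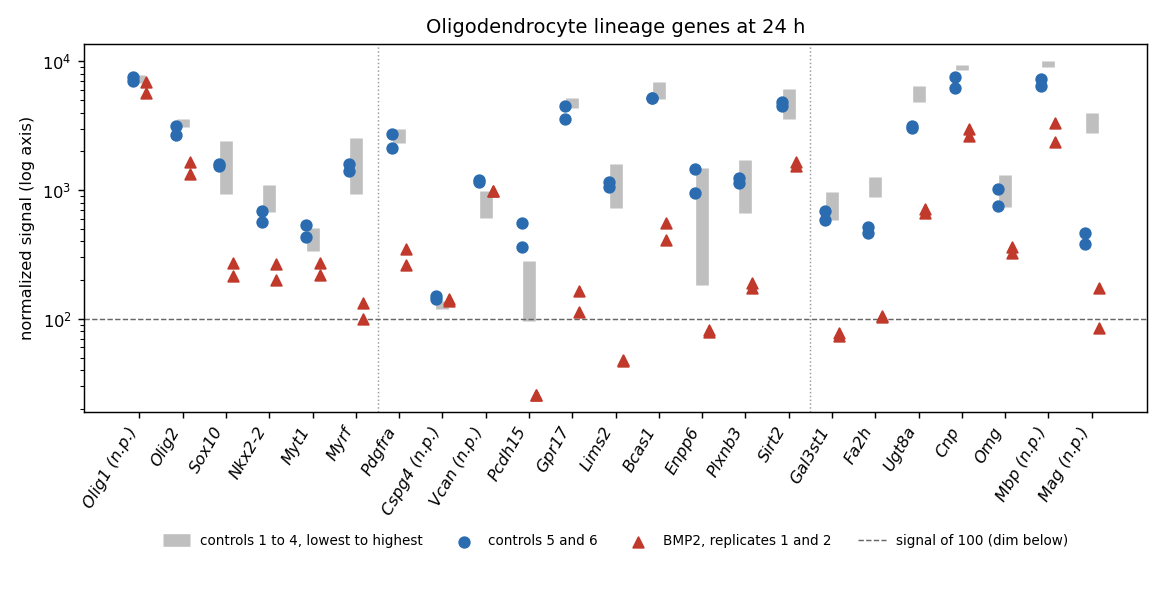
Normalized signals (log axis) of oligodendrocyte lineage genes at 24 h, from transcription factors on the left through precursor and premyelinating genes to myelin genes on the right, with the same symbols as for the BMP pathway genes. Genes marked n.p. did not pass. Gpr17 falls from 3567 and 4507 to 112 and 165, Olig1 and the brighter of the 2 tested probe sets of Cspg4 stay near their controls, and Mag lies at 384 to 466 in controls 5 and 6 but at 2754 to 3961 in controls 1 to 4.

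Of the 12 myelin genes tested, 5 fell and none rose, with a median of -1.27. Gal3st1, which makes the myelin lipid sulfatide, had 77.9 and 74.0 with BMP2 and 585 and 689 in controls 5 and 6, which is -2.63 ± 0.35 on the log2 scale (adjusted p = 0.00012). Cnp, a phosphodiesterase of the myelin sheath, had 2993 and 2649 against 7595 and 6159, a log2 fold change of -1.27. Ugt8a, which makes galactosylceramide, Fa2h, which hydroxylates its fatty acids, and Omg, a myelin glycoprotein, fell by 2.12, 1.94 and 1.28 on the log2 scale. The calls of Ugt8a and Omg were lost without any 1 of the 4 arrays. The major myelin protein gene Mbp had 3335 and 2365 against 7294 and 6473 and did not pass (adjusted p = 0.18), with none of its 7 tested probe sets passing. The myelin genes also separated the controls. Their summed signal was 7276 and 8880 on the BMP2 arrays, 20086 to 22327 in controls 5 and 6, and 39964 to 45881 in controls 1 to 4, against which 10 of the genes fell (14.6% of all genes tested against these controls fell). Mag, a myelin adhesion protein, had 175 and 85.1 with BMP2, 466 and 384 in controls 5 and 6, and 2754 to 3961 in controls 1 to 4.

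Astrocyte genes were not higher as a group. Of 23 tested, 2 rose, 3 fell and 18 did not pass, with a median of -0.25. Against controls 1 to 4, 11 of the astrocyte genes fell and none rose, where 14.6% of all genes tested fell. Gfap, the intermediate filament of astrocytes, had 950 and 142 with BMP2 and 621 and 101 in controls 5 and 6, so the difference within each group exceeded that between them (0.49 ± 0.79 on the log2 scale, adjusted p = 0.80). Against controls 1 to 4, with 1490 to 2965, the log2 fold change of Gfap was -2.48. S100b, a calcium-binding protein of mature glia, had 386 and 318 against 1186 and 997 and fell, and the glutamate transporter Slc1a3 and the connexin Gja1 fell by 0.76 and 0.65 on the log2 scale. These 3 calls were each lost without any 1 of the 4 arrays. The hyaluronan receptor Cd44 rose by 0.74 and the intermediate filament Vim by 0.34, each on 1 probe set of 2 and 3 tested, and neither passed against controls 1 to 4, nor without BMP2 replicate 1 or control replicate 6. Aqp4, the water channel of astrocyte endfeet, had 6207 and 5266 against 4416 and 3247 and did not pass (adjusted p = 0.11). The glutamate transporter Slc1a2 had 716 and 1190 against 1818 and 1820 (adjusted p = 0.21).

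Few neuronal genes and striatal transcription factors passed, and those that did moved in both directions. Of 17 neuronal genes tested, 1 rose and 1 fell, with a median of 0.36. This is near the share of all genes tested, of which 6.77% rose and 5.48% fell. Celf4, an RNA-binding protein of neurons, had 548 and 487 against 195 and 82.6 and rose by 1.77 on the log2 scale. Rbfox3, the antigen NeuN, had 123 and 117 against 365 and 291 and fell by 1.23, but its log2 fold change was 0.50 against controls 1 to 4, which had 43.2 to 122. Tubb3, the tubulin recognised by TuJ1, had 1490 and 1209 against 1006 and 643, and the synaptic Snap25 had 238 and 177 against 84.2 and 54.1, and neither passed (adjusted p = 0.36 and 0.094). Both passed against controls 1 to 4, with log2 fold changes of 1.85 and 1.40 (adjusted p = 0.0011 and 0.011). Of 10 transcription factors of the ganglionic eminence, Meis2 rose from 1584 and 1841 to 2861 and 2521. Gsx2, a homeodomain factor of striatal progenitors, had 23.6 and 41.9 against 289 and 247, and Gsx1 had 28.5 and 28.9 against 179 and 122. Both fell, and both calls were lost without any 1 of the 4 arrays, as that of Meis2 was without BMP2 replicate 1 or control replicate 5. Dlx2 had 1206 and 959 against 709 and 244 and did not pass.

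Among 14 stem cell and radial glia genes, 2 rose and 2 fell, with a median of -0.48. Egfr, the receptor of the mitogen on which the spheres were grown, had 277 and 387 with BMP2 and 1835 and 2064 in controls 5 and 6, which is -2.46 ± 0.24 on the log2 scale (adjusted p = 7.1e-06). The intermediate filament Nes had 156 and 202 against 540 and 515 and fell, while the matrix protein Tnc, with 3602 and 4535 against 1632 and 1498, and the transcription factor Pax6, with 689 and 609 against 425 and 349, rose. Nes and Tnc lost their calls without any 1 of the 4 arrays, Pax6 lost its own without BMP2 replicate 1, BMP2 replicate 2 or control replicate 6, and Nes did not pass against controls 1 to 4. Sox2, a factor of neural stem cells, had 6159 and 6410 against 5993 and 5826 and did not pass. None of 26 cell cycle genes passed (median 0.34), and the proliferation marker Mki67 had 181 and 425 with BMP2 and 335 and 193 in controls 5 and 6. Of 7 cyclin-dependent kinase inhibitors, Cdkn1c (0.84) and Cdkn2b (0.98) rose, the latter overlapping controls 1 to 4. The call of Cdkn2b was lost without any 1 of the 4 arrays, and that of Cdkn1c without BMP2 replicate 1 or control replicate 5.

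**Figure D3:**
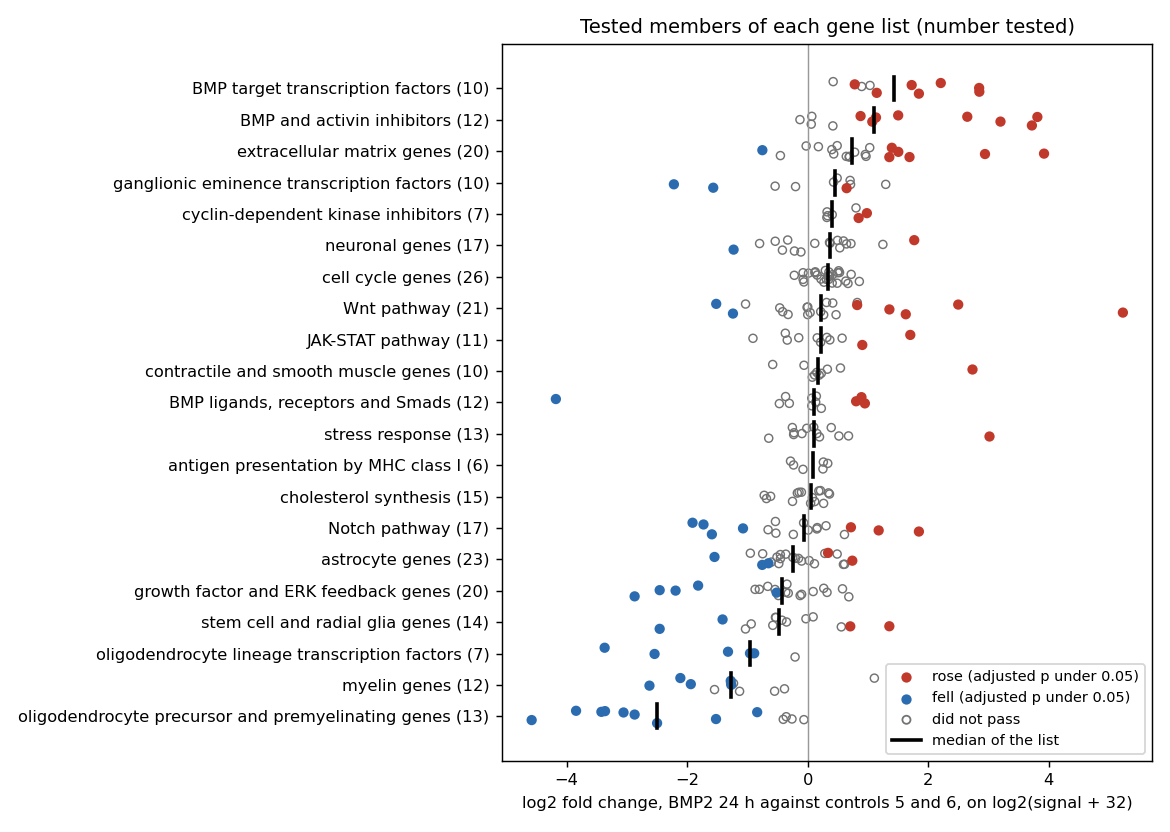
Log2 fold change of BMP2 at 24 h against controls 5 and 6 for every tested member of the gene lists with at least 5 tested members, with filled points for genes that passed (red higher, blue lower), open points for those that did not, and a black bar at the median of each list. BMP targets and inhibitors have the highest medians (1.43 and 1.10) and oligodendrocyte precursor genes the lowest (-2.50), while cell cycle, MHC class I and cholesterol synthesis genes hold no gene that passed. The lists were chosen with earlier results of these data known.

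Ligands and receptors of other pathways changed as well. In the Notch pathway 3 of 17 tested genes rose and 4 fell (median -0.07). The ligand Dll1 had 303 and 361 with BMP2 and 1365 and 1305 in controls 5 and 6, which is -1.91 ± 0.36 on the log2 scale (adjusted p = 0.0022). The ligand Dll3 (-1.73), the glycosyltransferase Mfng (-1.59) and the feedback inhibitor Nrarp (-1.08) fell too, whereas the ligand Jag1 had 369 and 471 against 186 and 149 and rose by 1.18. The call of Jag1 was lost without any 1 of the 4 arrays, and that of Nrarp without BMP2 replicate 1 or control replicate 6. The rises of Hey1 and of the Notch-binding Dner (0.72, lost without BMP2 replicate 1, BMP2 replicate 2 or control replicate 6) complete the list, and Hes1 and Hes5, which Notch induces, did not pass (-0.53 and -0.54).

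In the Wnt pathway 5 of 21 genes rose and 2 fell, with a median of 0.21. Besides Wif1, the risers were the secreted inhibitor Dkk1, with 190 and 135 against 24.7 and 36.8, and the receptors Fzd5 (2.50), Fzd1 (1.35) and Fzd7 (0.82). The secreted inhibitors Sfrp1, with 314 and 380 against 1206 and 915, and Sfrp2, with 102 and 114 against 241 and 369, fell. Secreted Wnt inhibitors therefore moved in both directions. The call of Sfrp2 was lost without BMP2 replicate 1 or control replicate 6 and that of Fzd7 without BMP2 replicate 1, and the Wnt target Axin2 had 209 and 194 against 178 and 228 and did not pass. Of 20 growth factor and ERK feedback genes, 5 fell and none rose (median -0.43). These were Egfr and Pdgfra, described above, the ligand Pdgfa, with 163 and 169 against 920 and 833, the transcription factor Myc, with 190 and 174 against 660 and 793, and the ERK inhibitor Spred1 (-0.52), for which 2 of 7 probe sets passed and whose call was lost without any 1 of the 4 arrays. In the JAK-STAT pathway 2 of 11 rose, the feedback inhibitor Socs2 (1.70) and the cytokine receptor subunit Il6st (0.90), and Stat3 had 1056 and 955 against 934 and 686 and did not pass. Both calls were lost without BMP2 replicate 1, BMP2 replicate 2 or control replicate 6, which leaves none of 11. Il6st passed on 1 of 4 probe sets and overlapped controls 1 to 4, against which it did not pass (adjusted p = 0.38).

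Of 20 matrix genes tested, 6 rose, 1 fell and 13 did not pass, with a median of 0.73. Without BMP2 replicate 1, 2 of the 6, Fbln5 and Lox, were too dim to be tested, with 85.1 and 78.4 on the remaining BMP2 array. Bgn, the proteoglycan biglycan, had 1198 and 779 with BMP2 and 138 and 67.7 in controls 5 and 6, which is 2.94 ± 0.75 on the log2 scale (adjusted p = 0.018). This call was lost without BMP2 replicate 1, BMP2 replicate 2 or control replicate 6. The others that rose were Ccn2, Tnc, the fibronectin gene Fn1 (1.5), the elastic fibre protein Fbln5 (1.69) and the crosslinking enzyme Lox (1.39). Lox and Fbln5 remained near 100 with BMP2. The collagen Col11a1 fell by 0.75 on the log2 scale, and its call, like that of Tnc, was lost without any 1 of the 4 arrays. Of 10 contractile genes Tagln alone passed, with 686 and 852 against 82.2 and 94.6, a call lost without BMP2 replicate 2 or control replicate 6, while smooth muscle actin, Acta2, had 606 and 366 against 313 and 599. The mural cell marker Pdgfrb had 89.7 and 17.6 against 410 and 74.8 and did not pass. The endothelial receptor Kdr, the single tested member of its 8 markers, rose from 93.9 and 62.6 to 306 and 254. The summed signal of the 8 endothelial markers was 336 to 390 with BMP2, 140 to 167 in controls 5 and 6, and 160 to 202 in controls 1 to 4. Kdr gave most of this sum with BMP2, and the other markers were too dim to be tested. The part of the endothelial signal in the other results was not tested. The summed choroid plexus signal was 779 to 868 with BMP2 and 617 to 624 in controls 5 and 6, and neither of the 2 genes tested passed. Of 13 stress genes Gadd45b rose, from 58.1 and 36.6 to 734 and 492, and among MHC class I and cholesterol synthesis genes none of 6 and none of 15 passed.

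Against controls 1 to 4, all 24 of the largest rises and falls passed as well, and 19 of them had log2 fold changes within 0.5 of those against controls 5 and 6. The log2 fold changes of Diras2, Wif1, Serpinf1 and Gpr17 were 5.90, 5.32, 4.89 and -4.79 against these controls. The 5 that moved further were Ccn2 (2.06 instead of 3.92), Pcdh15 (-1.93 instead of -3.06), Tmem88b (-3.84 instead of -2.73), Enpp6 (-2.55 instead of -3.43) and Hopx (4.66 instead of 4.02). The rises of Id1 and Tnc were larger (2.17 instead of 1.14, and 2.59 instead of 1.35). The difference between the control sets itself passed for 18 of 78 named genes tested for it, among them Ccn2, Id1, Tnc, Smad7, Cdkn1c, Mag, Gfap, Rbfox3 and Pcdh15, with adjusted p values from 0.00016 to 0.027.

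**Figure D4:**
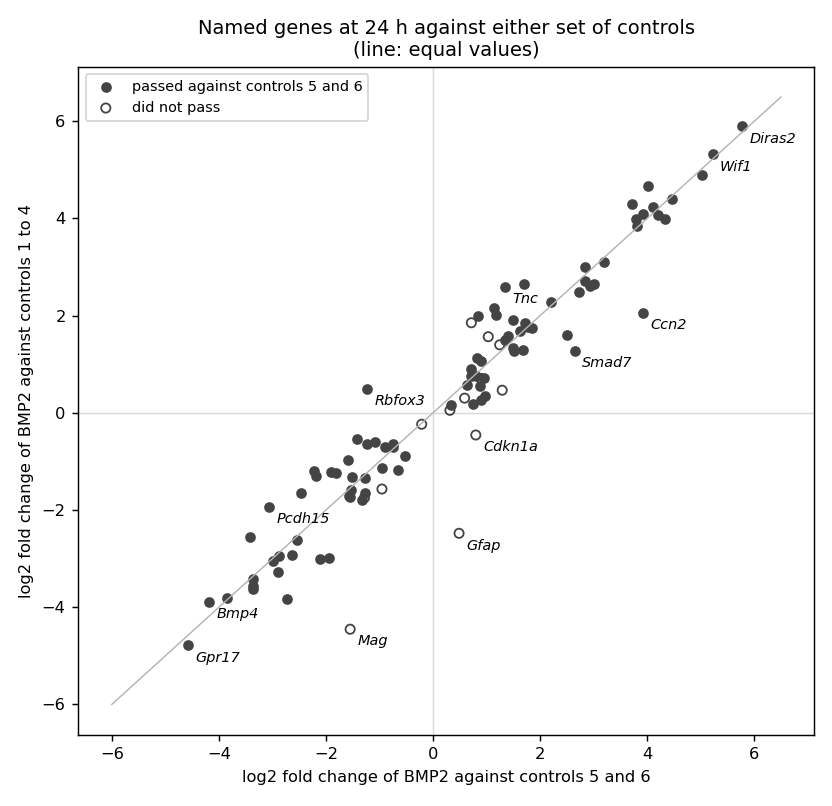
Log2 fold change of BMP2 at 24 h for the named genes against controls 5 and 6 (horizontal) and against controls 1 to 4 (vertical), with filled points for genes that passed against controls 5 and 6 and a line of equal values. Both axes use the same BMP2 arrays. Diras2, Wif1, Bmp4 and Gpr17 lie near the line, whereas Rbfox3, Gfap and Cdkn1a change sign between the control sets.

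The effect at 24 h was then set against that at 6 h, which was measured on other arrays. At 6 h 261 of 9518 genes changed (2.74%). Of the 9332 genes tested at both times, 228 changed at both, all in the same direction, 138 upward and 90 downward. They were 88.0% of the genes changed at 6 h and 21.5% of those changed at 24 h. Pathway genes differed in how much of their change was present at 6 h, when 3 of 6 tested BMP target factors and 5 of 12 inhibitors rose. Smad6 had a mean of 616 with BMP2 at 6 h and a log2 fold change of 3.57, against 3.81 at 24 h, and Hey1 and Atoh8 had 1.99 and 2.77 at 6 h against 1.84 and 2.85 at 24 h. Nog had a mean of 3011 at 6 h, above its signals at 24 h, but the difference of the 2 effects (-1.11) did not pass (adjusted p = 0.076). Klf4, Snai2 and Msx2 were too dim to be tested at 6 h, with BMP2 means of 77.1, 62.5 and 83.7 at 6 h and of 430, 191 and 149 at 24 h. Tob1 and Fstl1 had log2 fold changes of 0.23 and 0.48 at 6 h, which did not pass, against 0.88 and 1.13 at 24 h. None of the 10 target factors and 12 inhibitors passed the test of the difference between the times.

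The difference of the effects passed for 61 of 10194 genes (0.598%), in 48 toward a higher and in 13 toward a lower value at 24 h. All 48 had risen at 24 h, and 35 of them were still under 100 with BMP2 at 6 h. Npvf had means of 15.7 in controls and 30.1 with BMP2 at 6 h and of 9.97 and 872 at 24 h, a difference in log2 fold change of 3.97 (adjusted p = 0.00071). Serpinf1 had 31.1 and 185 at 6 h and 21.9 and 1769 at 24 h, a difference of 3.23 (adjusted p = 0.00036), and Diras2 had 31.5 and 386 at 6 h and 35.7 and 3567 at 24 h, a difference of 3.21 (adjusted p = 0.014). Aplnr, the apelin receptor, had 5.44 and 9.20 at 6 h and 6.34 and 264 at 24 h. L1cam, a neural adhesion molecule, had 52.4 and 89.5 at 6 h and 63.5 and 635 at 24 h, and the neuropilin Nrp2 had 55.5 and 64.1 at 6 h and 66.6 and 305 at 24 h. Aplnr, L1cam and Nrp2 are outside the rule for named genes and were chosen after their values were seen.

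**Figure D5:**
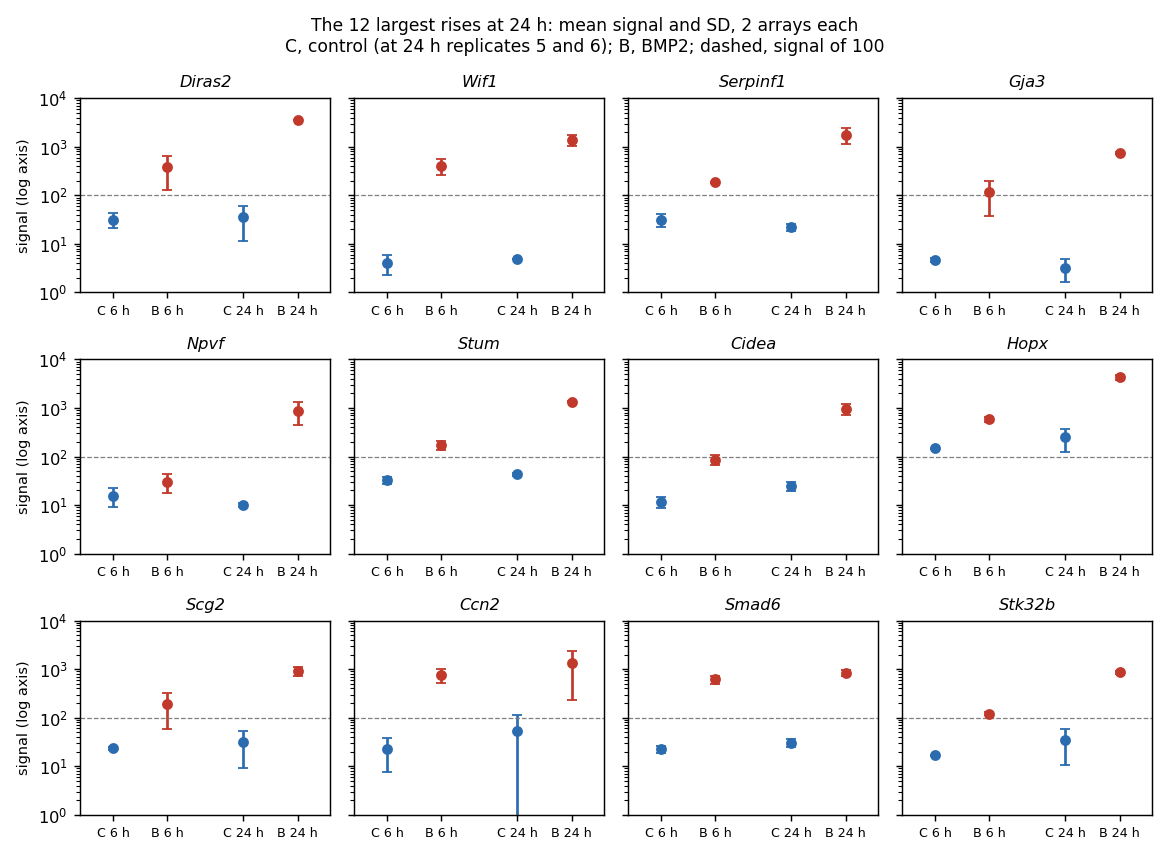
Mean signal (log axis) with SD over 2 arrays each for the 12 genes with the largest rises at 24 h, in controls (C, blue) and with BMP2 (B, red) at 6 h and 24 h, the 24 h controls being replicates 5 and 6. Smad6 has means of 616 at 6 h and 848 at 24 h with BMP2, whereas Npvf goes from 30.1 to 872.

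Of the 13 genes with a lower value at 24 h, 12 had fallen at 24 h. Gal3st1 had means of 642 in controls and 628 with BMP2 at 6 h and of 637 and 75.9 at 24 h, a difference in log2 fold change of -2.60 (adjusted p = 0.027). Pdgfra had 2689 and 1366 at 6 h and 2433 and 305 at 24 h, a difference of -1.90 (adjusted p = 0.014). Cdkn1c, an inhibitor of cyclin-dependent kinases, was the exception, with a larger rise at 6 h, from 192 to 1757, than at 24 h, from 499 to 907 (-2.13, adjusted p = 0.0048). Among myelin genes none of 11 tested at 6 h had passed at that time, and 1 of 12 passed the test of the difference. For Gpr17, Sox10 and Myrf the differences of -3.0, -2.18 and -2.04 did not pass (adjusted p = 0.38, 0.38 and 0.80). In probe sets, 86 passed this test, 69 toward a higher and 17 toward a lower value at 24 h. With 1 added before the log2 in place of 32, 16 passed, 7 higher and 9 lower, so the excess of higher values depends on this setting.

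Last, the effect of BMP2 was tested against that of 50 nM TSA at 24 h, the latter taken against controls 1 to 4 so that no array is shared. Differences between the control sets therefore enter each value. The effects differed for 2524 of 18940 probe sets (13.3%). Of the 10 BMP target factors, 9 had a higher effect with BMP2 and none a lower one, where 7.18% of all genes had a higher one. Smad7 had a mean of 133 ± 84 with TSA (SD, n = 4) and of 1606 with BMP2, and its log2 effect was higher with BMP2 by 4.81 ± 0.49 (adjusted p = 2.3e-05). Its controls 5 and 6 differed from controls 1 to 4 by -1.37 on the log2 scale (adjusted p = 0.013), which enters this value. Id3 had 466 ± 223 with TSA (SD, n = 4) and differed by 2.86 (adjusted p = 0.0050). Egfr went the other way, with 2344 ± 353 with TSA (SD, n = 4) and a difference of -3.53 ± 0.30 (adjusted p = 4.0e-06), as did Nes, Sfrp1 and Sfrp2 (-2.86, -2.63 and -2.75). The mean of Egfr was 332 with BMP2. Its controls 5 and 6 were above controls 1 to 4 by 0.82 on the log2 scale (adjusted p = 0.013), which enters its difference. With TSA, 12 of 13 precursor and premyelinating genes and 10 of 11 myelin genes tested fell, where 18.9% of all genes fell, and none of the 12 myelin genes passed the test of the difference. Of the 13 precursor and premyelinating genes 4 passed it, in both directions. Pdgfra had 1262 ± 230 with TSA (SD, n = 4) and a difference of -1.86 (adjusted p = 0.00061). Tnr, the matrix glycoprotein tenascin-R, Vcan and Lhfpl3 did not pass with BMP2 (-0.41, -0.26 and -0.36) but fell with TSA (-3.33, -2.10 and -2.20 on the log2 scale). Their differences were 2.93, 1.84 and 1.85 (adjusted p = 0.014, 0.0021 and 0.0060). Among the transcription factors of the lineage, the effect on Olig2 was lower with BMP2 (-0.79, adjusted p = 0.0089) and that on Nkx2-2 higher (1.53, adjusted p = 0.049).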

How the data were processed

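Total RNA was hybridized to 18 Mouse Genome 430 2.0 arrays with 45101 probe sets. The authors deposited a linear intensity for each probe set and array. The submitters' notes name MAS5 (version not given in the sources used here), while the methods name dChip with quantile normalization. Array medians and the share of probe sets at 100 or more (35.4 to 38.3%) were close, and no sequencing depth applies. The precision is limited by the number of arrays, 2 against 2.

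The signals were quantile-normalized again, 32 was added and the log2 taken. In R 4.3.3 with limma 3.58.1, 1 linear model was fitted to all 18 arrays in 7 groups, the 6 labelled ones with the 24 h controls divided into 1 to 4 and 5 and 6 (lmFit, contrasts.fit, eBayes with trend, 11 residual degrees of freedom). The Benjamini-Hochberg adjustment was run for each comparison on its own, over the probe sets whose mean reached 100 in a compared group, and the threshold was 0.05. The 64 control probe sets of the array were left out. Symbols come from the annotation of the array, which pairs 34958 probe sets with 1 gene, 932 with several and 9211 with none. Promoter windows come from RefSeq (GRCm38.p6).

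The 29 gene lists, the arrays and the rules were chosen with earlier results of these data known. Named genes are the 12 largest rises and 12 largest falls with both BMP2 arrays beyond all 6 controls (predicted genes passed over), the members of each list with the smallest adjusted p, members against their list, and defining members that did not pass. The alternatives were the deposited values, scaling to the median, pseudocounts of 1, 16 and 64, stricter and looser filters on dim signals, 1 probe set for each gene or the mean of its probe sets, the 4 arrays alone, other controls, no trend, no p criterion, and each array left out. The steps were tested on simulated data. Arrays of TSA at 6 h entered the model only.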

Additional observations from a re-analysis of the deposited data

Results flagged for a closer look

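In 3 genes, 1 of the 6 controls of 24 h stood apart from the other 5 by Dixon's criterion, which chance meets in about 1 in 20 groups. Control replicate 5 had a signal of 334 for Hopx, with 119 to 168 in the others. Control replicate 2 had 41.8 for Npvf, with 9.27 to 21.2 in the others, and 4836 for Id2, with 3685 to 4116 in the others.

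The effect of BMP2 differed between 24 h and 6 h by the test of the difference for 12 of the 101 named genes, and for 61 of all 10194 genes tested (0.598%). Many named genes were chosen for a large effect at 24 h, which favours a larger effect at 24 h in this test. The log2 fold change was higher at 24 h for Npvf (by 3.97), Serpinf1 (3.23), Diras2 (3.21), Cidea (2.68), Gja3 (2.57), Stum (2.54), Hopx (2.23) and Stk32b (2.13). It was lower at 24 h for Gal3st1 (-2.60), Pcdh15 (-2.51), Cdkn1c (-2.13) and Pdgfra (-1.90).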

How the results depend on the processing

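Of 88 named genes that passed, 53 kept direction and call under every alternative in which they were tested. Dim genes such as Fbln5, Lox, Msx2, Snai2 and Dkk1 fell under the signal filter of some alternatives and had no test there. Of the 1571 tested values of the 88 genes, 1409 kept both, 161 kept the direction and lost the call, and 1 reversed. The count of 1948 probe sets became 1226 with 1 probe set per gene, 6590 against controls 1 to 4 and 3174 against all 6 controls. It ranged from 983 to 1826 when 1 array was left out, with 983 without BMP2 replicate 1, 1163 without BMP2 replicate 2 and 987 without control replicate 6. By the study's criteria 1168 became 2284 against controls 1 to 4, with 1085 to 1433 when 1 array was left out. The list members that passed, 81 in all, became 143 against controls 1 to 4 and 47 to 68 with 1 array left out (47 without BMP2 replicate 1, 51 without control replicate 6). The 86 probe sets whose effect differed between 24 h and 6 h became 16 with a pseudocount of 1, and 40 to 116 with 1 array left out (40 without BMP2 replicate 1, 46 without control replicate 6). The 2524 that differed between BMP2 and TSA became 7283 with all 6 controls, and 1375 to 2110 with 1 array left out (1375 without BMP2 replicate 1, 1399 without BMP2 replicate 2, 1471 without control replicate 6). Where an array was left out, the lone array of the pair was assumed to vary like the other groups. Rbfox3, at -1.23, reversed to 0.50 against controls 1 to 4. Of 13 named genes that did not pass, 7 passed in the same direction against controls 1 to 4, where 34.7% of all genes changed. They were Id2, Id3, Tubb3, Snap25, Mbp, Mag and Slc1a2. With the 4 arrays alone, 5 of the 13 passed. Among genes that did not pass, Gfap (0.49) became -2.48 against controls 1 to 4, -1.49 against all 6 and between -0.76 (without BMP2 replicate 1) and 1.73 (without BMP2 replicate 2) with 1 array left out, including -0.66 without control replicate 6, and Cdkn1a (0.80) became -0.46 against controls 1 to 4 and -0.038 against all 6. The cause was not tested. Signals under 100 limit the fold changes of 186 rises and 128 falls. No paired analysis was possible because BMP2 replicates 1 and 2 and control replicates 5 and 6 share no replicate number.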

Other observations

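Several genes separated the control sets of 24 h as far as any treatment did. They were chosen after their values were seen. Cdkn2a, which encodes cell cycle inhibitors, had 358 and 406 in controls 5 and 6, 450 and 519 with BMP2, and 12.3 to 22.2 in controls 1 to 4. Sox8, a transcription factor of glia, had 1697 and 2061 in controls 5 and 6, 819 and 1152 with BMP2, and 188 to 262 in controls 1 to 4. The late myelin genes Mobp and Tspan2 went the other way, with 159 and 72.7, and 136 and 168, in controls 5 and 6 against 3051 to 4390 and 1022 to 1872 in controls 1 to 4.

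Other genes separated the arrays within each pair. For Clu, a secreted chaperone of astrocytes, BMP2 replicate 1 and control replicate 5 had 3185 and 3537, and BMP2 replicate 2 and control replicate 6 had 901 and 1156. Gad1, which makes GABA, had 130 and 244 against 43.2 and 47.3 in the same order, Myl9 had 132 and 262 against 30.7 and 46.6, and Gfap, given above, followed the same order. The labels do not pair these arrays.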
